A study of Arabidopsis thaliana with 4 samples.

Results

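The transcripts described here encode proteins of the small subunit of the cytosolic ribosome, the 40S subunit, in Arabidopsis thaliana. They are 60 listed gene loci, taken by locus identifier from a larger table of 3′ end reads and grouped by the S number of their protein into 26 proteins. Reads were present for 56 of the 60 loci, of 8346 genes with a read in the whole table. AT3G04770 (SA), AT5G59240 (S8), AT3G09680 (S23) and AT5G64140 (S28) had 0 reads in every library. The 60 loci together gave 2929 of 89792 reads. All 60 matched an entry of the reference annotation, whose product names a ribosomal protein for 52 and another domain or family wording for the rest, and 25 had at least 40 reads over the libraries together.

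The reads come from TAIL-seq, in which an adapter is ligated to RNA 3′ ends so that the poly(A) tract and any nucleotides added behind it can be read. There were 4 libraries of whole seedlings aged 2 weeks, 1 library per genotype. These were the urt1-1 xrn4-3 double mutant (urt1 xrn4 below), the single mutants urt1-1 (urt1) and xrn4-3 (xrn4), and wild type of the Col0 ecotype (WT). The table held 26300 reads from urt1 xrn4, 43391 from urt1, 9797 from xrn4 and 10304 from WT, with A tracts of 4 to 30 nt. The single mutants are insertion lines, and the labels name 1 allele of each gene. URT1 and XRN4 themselves had 0 reads in every library, so their transcripts give no check of the genotype labels. Plants were grown on soil with 16 h light and 8 h darkness.

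With 1 library per genotype there is no spread between samples and no test of any difference. Intervals are 95% intervals of counting error within a library or between 2 libraries. Reads carried no molecular identifiers, so repeated reads of 1 molecule cannot be told from different molecules. A combination of locus, A length and extension seen more than 1 time is counted below as 1 distinct end. Distinct ends were 45.5% of 40S reads in urt1 xrn4, 40% in urt1, 64.3% in xrn4 and 62.9% in WT. Unmodified ends of a locus can differ only in A length, so a deeper library repeats them more often. Values over distinct ends therefore also depend on depth. In whole seedlings, fewer cells of a type and less RNA per cell cannot be told apart.

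URT1 is the terminal uridylyltransferase that puts uridines on shortened A tracts of mRNA, and XRN4 is the cytoplasmic exoribonuclease that digests decapped mRNA from the 5′ end. A short A tract followed by U is a mark of an mRNA in late decay. Ribosomal protein mRNAs are abundant in growing tissue, and most Arabidopsis ribosomal proteins are encoded by several near-identical paralogs. Reads can be shared between such paralogs, so the split of reads within a protein is uncertain, and the sources do not say how reads with several matches were treated.

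The tails below are examples, and not all of them differ between libraries. Each is the most frequent tail of its kind at 1 locus or over all 40S loci, written as A tract and then extension. Capitals mark the added nucleotides, and the file writes U as T.
urt1 xrn4, AT5G18380 (S16): aaaaaaaaaaaaaaT
urt1 xrn4, all 40S loci, unmodified: aaaaaaaaaaaaaaaaa
urt1, all 40S loci, unmodified: aaaaaaaaaaaaaaaaa
xrn4, AT3G04840 (S3a): aaaaaaaaaaaaaTT
xrn4, AT5G41520 (S10): aaaaaaaaaaaaTT
WT, AT5G18380 (S16): aaaaaaaaaTT
WT, AT5G52650 (S10): aaaaaaaaaaaaaaaTT
WT, all 40S loci, unmodified: aaaaaaaaaaaaaaaa
The AT5G18380 tail of 14 A and 1 U was read 5 times in urt1 xrn4. The unmodified tail of 17 A was the most frequent in urt1 xrn4, with 81 reads at 23 loci, and in urt1, with 123 reads at 36 loci. In xrn4 the AT3G04840 tail of 13 A and 2 U had 7 reads and the AT5G41520 tail of 12 A and 2 U had 6. In WT the AT5G18380 tail of 9 A and 2 U had 5 reads, the AT5G52650 tail of 15 A and 2 U had 4, and the unmodified tail of 16 A had 17 reads at 15 loci. Unmodified WT tails of 17 A and of 18 A had 16 reads each. The most frequent unmodified tail in xrn4, not printed above, had 9 A, with 13 reads at 2 loci. Of the 218 uridylated 40S reads, 171 had an extension of U alone. The others also held A. No mixed tail is printed, because the sources do not say in which direction the added letters run.

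Uridylated tails of 40S transcripts were rare in both libraries that lack URT1 and more frequent in those that have it. Reads of the table's U category count as uridylated here. Uridylated reads were 6.65% of 40S reads in urt1 xrn4 (65 of 977; exact 5.17 to 8.40), 2.75% in urt1 (42 of 1530; 1.99 to 3.69), 28.6% in xrn4 (52 of 182; 22.1 to 35.7) and 24.6% in WT (59 of 240; 19.3 to 30.5). The urt1 share was 8.96-fold below WT, with a difference of -21.8 percentage points (Newcombe interval -27.7 to -16.7). In urt1 xrn4 the share was 4.29-fold below xrn4 (-21.9 points, -29.0 to -15.6) and below WT (-17.9 points, -23.9 to -12.6). Set against urt1 it was 2.42-fold higher (3.91 points, 2.22 to 5.78), or 6.34 points higher as a mean over loci with at least 5 reads. As such a mean it lay -29.3 points from xrn4, and -14.5 points with identical reads counted once. The xrn4 and WT shares differed by 3.99 points with an interval from -4.42 to 12.6, which includes 0. Over distinct ends instead of reads, U was on 9.46% in urt1 xrn4, 6.21% in urt1, 23.9% in xrn4 and 24.5% in WT. The gap of urt1 to WT was then smaller, and the difference of xrn4 from WT turned its sign. In urt1 the distinct ends were 612 for 1530 reads and 38 for the 42 uridylated reads. In WT they were 151 for 240 reads and 37 for the 59 uridylated reads. How much of the smaller gap comes from depth was not tested. The comparisons of urt1, xrn4 and urt1 xrn4 with WT share the same WT library.

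**Figure D1:**
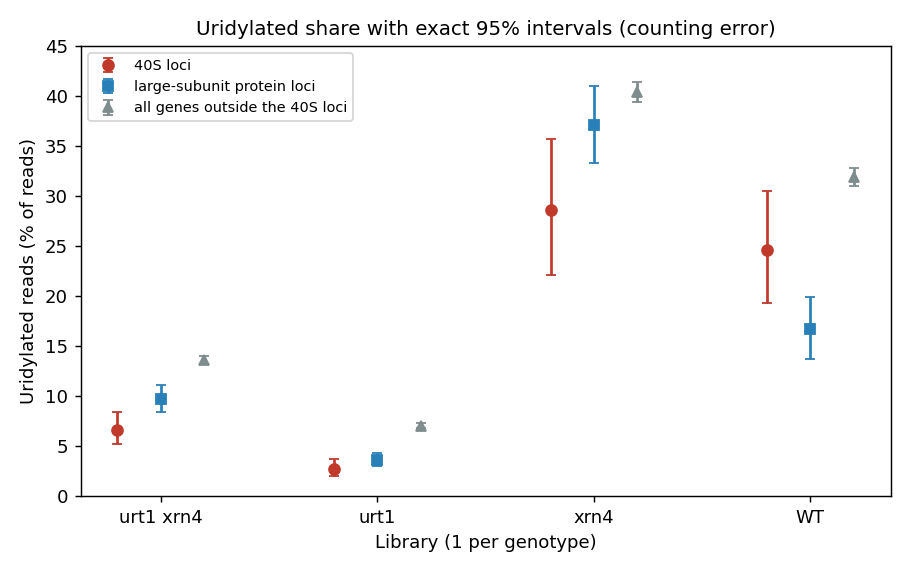
Uridylated reads as a percentage of reads (y axis) in each library (x axis), for the 40S loci, for loci of large-subunit ribosomal proteins and for all genes outside the 40S loci. Points are shares of 1 library and bars are exact 95% intervals of counting error; the 40S share was 6.65% in urt1 xrn4 and 2.75% in urt1, against 28.6% in xrn4 and 24.6% in WT.

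The 40S share lay below that of all other genes in each library. Other genes had 13.6% uridylated reads in urt1 xrn4, 7.03% in urt1, 40.4% in xrn4 and 31.9% in WT. For them urt1 was 4.54-fold below WT and xrn4 was 8.54 points above it (7.20 to 9.88). Loci whose annotated product is a large-subunit (L) ribosomal protein had 9.72% in urt1 xrn4, 3.64% in urt1, 37.1% in xrn4 and 16.7% in WT. In these large-subunit transcripts the xrn4 share was 20.4 points above WT (15.5 to 25.2), against the 3.99 points of the 40S loci. This list was taken by product name, holds 184 loci of which 141 had a read, and may include plastid copies that the product does not name. Whether the 40S loci differ from these genes was not tested.

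The uridylated reads in xrn4 came from few 40S loci. Of 52 uridylated reads there, 42 belonged to 5 loci, and these 42 were 18 distinct ends. Of these 5, 4 are described. AT3G04840 (S3a, near the mRNA exit) carried U on 11 of 12 reads in xrn4 and on 0 of 3 in WT. AT5G41520 (RPS10B, an S10 protein of the head of the subunit) carried U on 9 of 9 in xrn4 and 2 of 6 in WT. RPS18C (AT4G09800), an S18 protein of the head, carried U on 8 of 8 in xrn4 and 3 of 5 in WT. AT5G59850 (S15a) carried U on 7 of 16 in xrn4 and 0 of 10 in WT. These loci were named after their values were seen. Together the 5 loci had 3.41% uridylated reads in urt1 xrn4 (3 of 88), 4.52% in urt1 (7 of 155), 79.2% in xrn4 (42 of 53) and 20.8% in WT (5 of 24). The rest of the 40S loci had 6.97% in urt1 xrn4, 2.55% in urt1, 7.75% in xrn4 (10 of 129; exact 3.78 to 13.8) and 25% in WT (54 of 216; 19.4 to 31.3). Over the rest, urt1 xrn4 differed from xrn4 by -0.778 points and xrn4 from WT by -17.2 points. Since the 5 were picked for their xrn4 reads, the low xrn4 share of the rest follows in part from the choice. In WT the 5 loci with the most uridylated reads held 36 of 59, with 19 distinct ends. In urt1 xrn4 they held 33 of 65 and in urt1 23 of 42.

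Few 40S loci had enough reads to compare uridylation locus by locus. With at least 10 reads in each library, the urt1 and WT comparison covered 5 of them. For 3 of them urt1 was lower with an interval that excludes 0, beside 48.3% of the 143 genes tested, and for 0 it was higher, beside 0% of all genes. AT3G02560, an S7 protein, had 1 of 16 reads uridylated in urt1 and 9 of 13 in WT, a difference of -63.0 points (-81.8 to -28.2). AT5G02960, an S23 protein at the decoding centre, had 1 of 69 in urt1 and 5 of 16 in WT (-29.8 points, -54.2 to -11.6). For AT5G18380, an S16 protein whose tail reaches the tRNA in the P site, 10 of 180 reads in urt1 carried U against 12 of 42 in WT (-23.0 points, -38.2 to -10.8). The interval included 0 for AT5G28060 (S24), with 3 of 49 in urt1 and 3 of 23 in WT, and for AT5G59850, with 4 of 36 in urt1 and 0 of 10 in WT.

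Against WT, urt1 xrn4 had the lower share at 3 of 4 loci tested, beside 38.4% of 125 genes lower and 1.6% higher. AT3G02560 had 4 of 18 uridylated reads in urt1 xrn4 and 9 of 13 in WT, AT5G02960 had 6 of 66 in urt1 xrn4 and 5 of 16 in WT, and AT5G18380 had 8 of 136 in urt1 xrn4 and 12 of 42 in WT. Against xrn4, 2 of 5 loci were lower in urt1 xrn4 and 0 were higher, beside 53.4% lower and 3.76% higher of 133 genes. They were AT3G04840, with 3 of 16 reads in urt1 xrn4 and 11 of 12 in xrn4, and AT5G59850, with 0 of 27 in urt1 xrn4 and 7 of 16 in xrn4. Of 27 loci compared between urt1 xrn4 and urt1, 1 was higher and 0 were lower, beside 17.6% higher and 0.964% lower of 415 genes. This was AT5G03850 (S28, which lines the mRNA exit), with 7 of 27 in urt1 xrn4 and 0 of 29 in urt1 (25.9 points, 8.62 to 44.7). Between xrn4 and WT 2 loci could be compared, beside 37.5% higher and 8.75% lower of 80 genes. AT5G59850 was higher in xrn4 (7 of 16 against 0 of 10). AT5G18380 was lower, with 1 of 25 in xrn4 and 12 of 42 in WT (-24.6 points, -39.9 to -5.29).

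With identical reads counted once no 40S locus had an interval excluding 0 in any of these 5 comparisons, but few loci passed the minimum. Only 1 did in urt1 over WT, 1 in xrn4 over WT, 1 in urt1 xrn4 over WT and 1 in urt1 xrn4 over xrn4. In urt1 xrn4 over urt1 17 did. The loci named above could thus mostly not be tested again in this way. Both S20 loci, of the head, carried U in the double mutant at small numbers, and were named after their values were seen. AT5G62300 had 7 of 13 reads with U in urt1 xrn4 and 0 of 8 in urt1, and AT3G45030 had 5 of 13 in urt1 xrn4, 0 of 5 in urt1 and 1 of 1 in xrn4. Neither had a read in WT. The 12 uridylated S20 reads of urt1 xrn4 were 4 distinct ends. At AT1G04270 (S15) the 4 uridylated reads in urt1 xrn4 were 1 distinct end, and at AT3G53870 (S3) the 3 in WT were also 1. AT3G04920 (S24) carried no U on any of 42 reads in urt1 xrn4, 57 in urt1 and 8 in WT, and had 0 reads in xrn4. AT2G31610, another S3 locus, carried none on 21 reads in urt1 xrn4, 37 in urt1, 3 in xrn4 and 4 in WT.

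A tracts under 10 A were more frequent among 40S reads of xrn4 than of WT. Mean A length was 15.6 nt in urt1 xrn4, 15.9 in urt1, 14.8 in xrn4 and 17.04 in WT, with standard deviations over reads of 5.803 nt in urt1 xrn4, 5.47 in urt1, 6.54 in xrn4 and 5.26 in WT. Tracts under 10 A made up 16.2% of 40S reads in urt1 xrn4, 13.5% in urt1, 22.5% in xrn4 and 9.58% in WT. The difference of xrn4 from WT was 12.9 points (5.94 to 20.2), that of urt1 xrn4 from WT 6.59 points (1.69 to 10.5), and that of urt1 xrn4 from xrn4 -6.36 points (-13.3 to -0.370). The interval included 0 for urt1 with WT (3.88 points, -0.794 to 7.48) and for urt1 xrn4 with urt1 (2.71 points, -0.117 to 5.64). Without AT5G18380 urt1 xrn4 differed from WT by 10.7 points. Tracts over 25 A made up 4.504% in urt1 xrn4, 4.51% in urt1, 12.6% in xrn4 (exact 8.18 to 18.4) and 8.33% in WT (5.16 to 12.6), with intervals that overlap. In all other genes tracts over 25 A were 5.05% in urt1 xrn4, 5.09% in urt1, 5.003% in xrn4 and 7.04% in WT, so xrn4 lay below WT there. In all other genes the share under 10 A was higher in each library, at 24.99% in urt1 xrn4, 19.9% in urt1, 26.8% in xrn4 and 18.1% in WT. Unmodified 40S tails had a median of 17 A in urt1 xrn4, 16 in urt1, 16 in xrn4 and 18 in WT. Uridylated ones had a median of 14 A in urt1 xrn4, 15 in urt1, 12 in xrn4 and 15 in WT. At AT5G18380, the 1 locus with at least 20 reads in all libraries, mean A length was 17.6 nt in urt1 xrn4, 17.1 in urt1, 16.1 in xrn4 and 16.5 in WT. Its xrn4 and WT means differed by -0.428 nt, with a standard error over reads of 1.18 nt.

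In xrn4 33 of 52 uridylated 40S tails had 11 to 13 A, a window chosen after the profile was seen. Of tails in that window, 33 of 39 carried U in xrn4 (84.6%; exact 69.5 to 94.1) and 10 of 26 in WT (38.5%; 20.2 to 59.4). In the libraries without URT1 the same window held 8 uridylated of 115 tails in urt1 xrn4 (6.96%) and 9 of 212 in urt1 (4.25%). The 33 reads in xrn4 came from 8 loci. Counted as distinct ends, U was on 13 of 19 in xrn4 and 7 of 15 in WT, which brings the libraries closer. Among single lengths in WT, U was on 9 of 13 tails of 9 A, 2 of 3 of 10 A, 7 of 7 of 11 A and 1 of 4 of 12 A. It was on 2 of 15 WT tails of 13 A, 2 of 19 of 14 A, 13 of 25 of 15 A and 8 of 26 of 16 A, so the WT share was uneven from length to length. In all other genes 67.4% of tails of 11 to 13 A carried U in xrn4 and 64.0% in WT. None of the 40S tails of 26 to 30 A was uridylated in urt1 xrn4 (0 of 44, exact upper limit 8.04%), in urt1 (0 of 69, 5.21%) or in WT (0 of 20, 16.8%), and 1 of 23 was in xrn4.

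**Figure D2:**
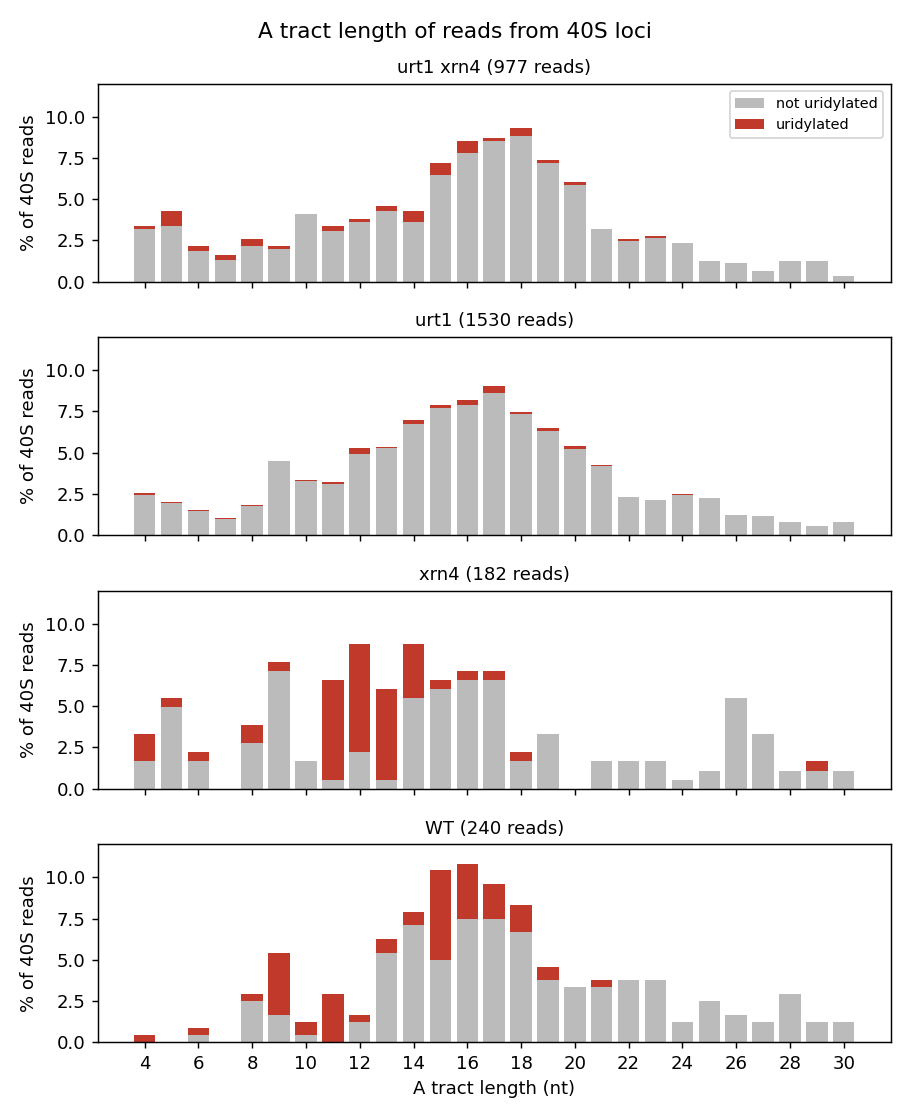
Reads of the 40S loci by A tract length in nt (x axis), as a percentage of the 40S reads of each library (y axis), with uridylated reads in red on top of the others in grey. In xrn4 33 of 39 tails of 11 to 13 A were uridylated, against 10 of 26 in WT. At 14 to 18 A 10 of 58 were in xrn4 and 32 of 113 in WT. In urt1 xrn4 and urt1 uridylated reads were few at every length.

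Without URT1 the remaining U extensions of 40S tails were mostly a single U. In urt1 xrn4 76.9% of uridylated reads held 1 U (50 of 65; exact 64.8 to 86.5), and in urt1 76.2% did (32 of 42; 60.6 to 88.0). In xrn4 13.5% held 1 U (7 of 52; 5.59 to 25.8) and in WT 42.4% (25 of 59; 29.6 to 55.9). Extensions with 2 U were 13.8% in urt1 xrn4, 19.05% in urt1, 71.2% in xrn4 and 50.8% in WT. The share with at least 2 U was 28.9 points higher in xrn4 than in WT (12.2 to 43.3), or 15.5 points with identical reads counted once, and lower in urt1 than in WT (difference -33.8 points, -49.5 to -14.4). In urt1 xrn4 it was below xrn4 (difference -63.5 points, -74.4 to -46.9), and its difference from urt1 was -0.733 points (-17.8 to 14.8). Extensions of 3 or more U were 15.4% of those in xrn4 (8 of 52), where all other genes had 35.5%. Those holding both U and A made up 16.9% in urt1 xrn4, 40.5% in urt1, 13.5% in xrn4 and 20.3% in WT. In large-subunit transcripts 1 U was on 65.9% of uridylated reads in urt1 xrn4, 86.2% in urt1, 25.7% in xrn4 and 86.7% in WT. There a single U was thus as frequent in WT as in urt1.

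**Figure D3:**
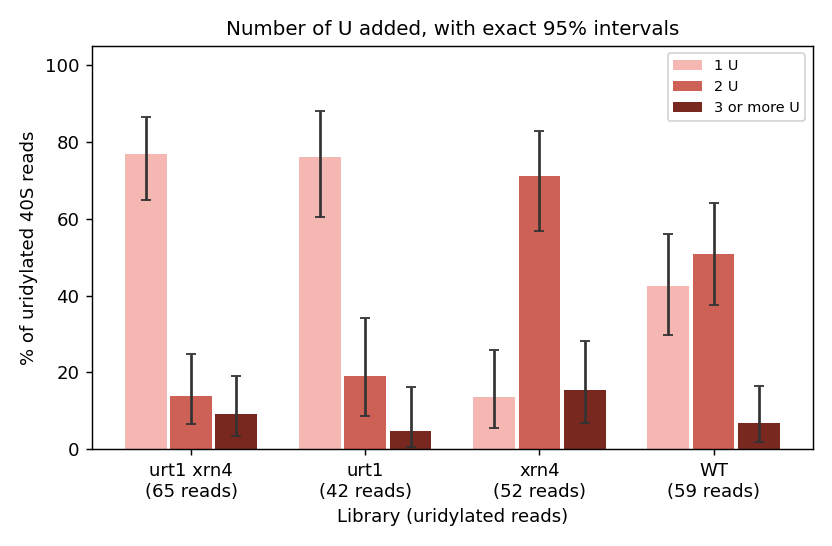
Uridylated reads of the 40S loci by the number of U added, as a percentage of the uridylated 40S reads of each library (y axis), with exact 95% intervals of counting error. Reads with 1 U were 76.9% in urt1 xrn4 and 76.2% in urt1, while reads with 2 U were 71.2% in xrn4 and 50.8% in WT.

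40S transcripts took a larger share of the table's short-tailed reads in the libraries that lack URT1. They were 3.71% of all reads in urt1 xrn4 (exact 3.49 to 3.95), 3.53% in urt1 (3.35 to 3.70), 1.86% in xrn4 (1.60 to 2.14) and 2.33% in WT (2.05 to 2.64). The ratio was 1.51 in urt1 over WT (1.32 to 1.74), 1.59 in urt1 xrn4 over WT (1.38 to 1.84), 2 in urt1 xrn4 over xrn4 (1.71 to 2.36) and 0.798 in xrn4 over WT (0.654 to 0.971). It was 1.05 in urt1 xrn4 over urt1 (0.971 to 1.14), which the trimmed mean scaling (TMM) turned to 0.901. That scaling shifted log2 ratios of all genes by 0.82 in urt1 over WT, 0.06 in xrn4 over WT, 0.55 in urt1 xrn4 over WT, 0.38 in urt1 xrn4 over xrn4 and -0.23 in urt1 xrn4 over urt1. The ratio was then 2.67 in urt1 over WT and kept its direction in the other 3. Among reads without U alone the ratios were 1.43 in urt1 over WT (1.23 to 1.68), 1.804 in urt1 xrn4 over xrn4 (1.5 to 2.185) and 0.863 in xrn4 over WT (0.683 to 1.09). Large-subunit transcripts were 7.12% of reads in urt1 xrn4, 7.79% in urt1, 6.52% in xrn4 and 5.71% in WT. Their ratio was 1.36 in urt1 over WT (1.25 to 1.49), 1.14 in xrn4 over WT (1.02 to 1.28) and 1.25 in urt1 xrn4 over WT (1.14 to 1.37). In urt1 xrn4 over xrn4 it was 1.09 with an interval that includes 1 (0.998 to 1.20), and in urt1 xrn4 over urt1 0.914 (0.864 to 0.968). A share of this table is a share of 3′ ends with at most 30 A and not an mRNA level.

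Read shares of single loci were compared by log2 ratios of CPM (reads scaled to the library's total in the table), after adding 0.5 to each count. Genes needed at least 20 reads over the libraries compared. Loci were counted as higher or lower from a 2-fold ratio on, if the exact conditional interval left out 1. This minimum lets in loci high in the deeper library more easily. In urt1 over WT 8 of 30 tested 40S loci were higher and 1 was lower, beside 20% higher and 8.18% lower of 440 genes; the median log2 ratio was 0.67 for the 40S loci and 0.31 for all genes tested. In xrn4 over WT 0 of 4 were higher and 1 was lower, beside 16.7% higher and 13% lower of 138 genes, with medians of -0.97 for the 40S loci and 0.07 for all genes. In urt1 xrn4 over WT 5 of 20 were higher and 1 was lower, beside 27% higher and 10.2% lower of 315 genes, with medians of 0.68 for the 40S loci and 0.50 for all genes. In urt1 xrn4 over xrn4 10 of 22 were higher and 0 lower, beside 26.9% higher and 15% lower of 327 genes, with medians of 1.10 for the 40S loci and 0.26 for all genes. In urt1 xrn4 over urt1 1 of 37 was higher and 4 were lower, beside 12.2% higher and 10.2% lower of 598 genes, with medians of 0.31 for the 40S loci and 0.03 for all genes. With TMM scaling 17 were higher and 0 lower in urt1 over WT, and 0 higher and 5 lower in urt1 xrn4 over urt1. That scaling moves the log2 ratios of all genes, and the share of all genes past 2-fold under it was not counted. These numbers therefore do not set the 40S loci apart from other genes. Counting loci with 0 reads at a floor of 3 left 6 of 8 higher in urt1 over WT and changed no median of the 40S loci. The shares of 40S loci counted as higher in urt1 over WT (26.7%) and in urt1 xrn4 over WT (25%) were close to those of all genes. With identical reads counted once these numbers fell to 0 of 13 loci in urt1 over WT and 1 of 5 in urt1 xrn4 over xrn4, in part because fewer loci could be tested. In urt1 xrn4 over urt1, 2 of 24 loci were then higher and 0 lower.

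**Figure D4:**
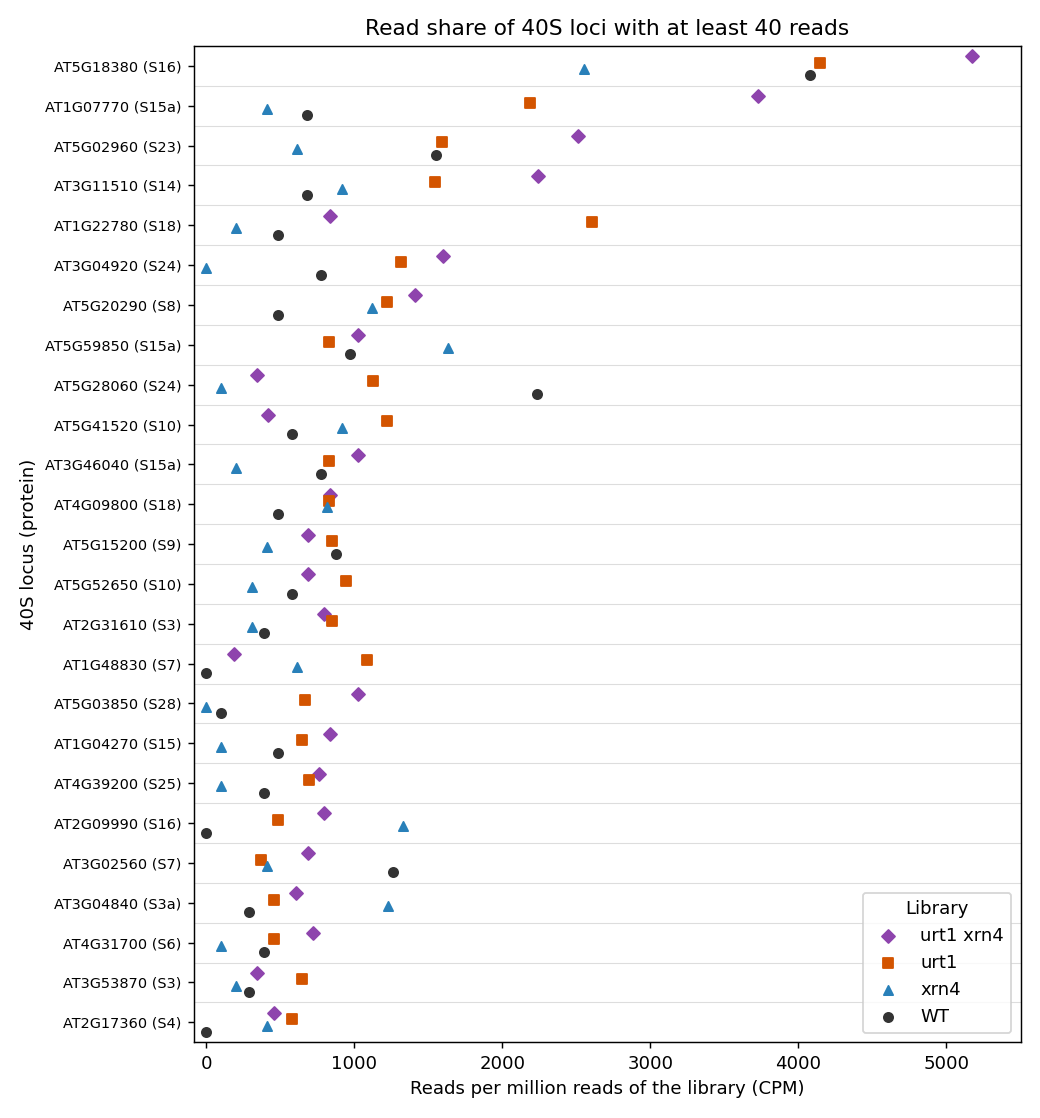
CPM (x axis) for the 25 loci of 40S proteins with at least 40 reads (y axis, with the protein in brackets), 1 point per library. AT5G18380 lies highest in every library, between 2552 CPM in xrn4 and 5171 CPM in urt1 xrn4. AT1G22780 has 2604 CPM in urt1, where its 113 reads were 24 distinct ends.

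The S16 locus AT5G18380 gave the most reads in every library. It had 136 reads (5171 CPM) in urt1 xrn4, 180 (4148) in urt1, 25 (2552) in xrn4 and 42 (4076) in WT, and was counted in no comparison. In urt1 xrn4 over xrn4 AT5G18380 fell just short of 2-fold, with a log2 ratio of 0.996 (0.396 to 1.697). Its paralog AT2G09990 had 21 reads (798 CPM) in urt1 xrn4, 21 (484) in urt1, 13 (1327) in xrn4 and 0 in WT. Against a floor of 3 reads in WT, it was 2.74-fold higher in urt1 xrn4 and 1.66-fold higher in urt1. The intervals of its log2 ratio began at 1.03 in urt1 xrn4 over WT and at 0.31 in urt1 over WT. The 13 xrn4 reads were 2 distinct ends, none with U. Both S16 loci summed had 5970 CPM in urt1 xrn4, 4632 in urt1, 3879 in xrn4 and 4076 in WT. AT5G02960 (S23) had 66 reads (2510 CPM) in urt1 xrn4, 69 (1590) in urt1, 6 (612) in xrn4 and 16 (1553) in WT. It was higher in urt1 xrn4 than in xrn4, with a log2 ratio of 1.93 (0.84 to 3.53). RPS15 (AT1G04270), whose protein reaches into the decoding site, had 22 reads (837 CPM) in urt1 xrn4, 28 (645) in urt1, 1 (102) in xrn4 and 5 (485) in WT. Its log2 ratio of urt1 xrn4 over xrn4 was 2.48 (0.41 to 8.40), and U was on 4 reads in urt1 xrn4, 1 in urt1, 0 in xrn4 and 1 in WT.

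S15a, a protein of the body of the subunit, was higher in the double mutant than in xrn4 at 2 of its 3 loci. RPS15A (AT1G07770) had 98 reads (3726 CPM) in urt1 xrn4, 95 (2189) in urt1, 4 (408) in xrn4 and 7 (679) in WT. Its log2 ratio was 2.36 in urt1 xrn4 over WT (1.36 to 3.81), 1.60 in urt1 over WT (0.59 to 3.04) and 3.03 in urt1 xrn4 over xrn4 (1.79 to 5.09). Its reads were 37 distinct ends in urt1 xrn4 and 23 in urt1, and U was on 2 reads in urt1 xrn4, 0 in urt1, 0 in xrn4 and 1 in WT. RPS15AD (AT3G46040) had 27 reads (1027 CPM) in urt1 xrn4, 36 (830) in urt1, 2 (204) in xrn4 and 8 (776) in WT, with a log2 ratio of 2.03 in urt1 xrn4 over xrn4 (0.34 to 5.45). U was on 1 of its reads in urt1 xrn4 and 2 in urt1. AT5G59850 was counted in neither direction, with 27 reads (1027 CPM) in urt1 xrn4, 36 (830) in urt1, 16 (1633) in xrn4 and 10 (970) in WT.

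The S18 and S10 proteins belong to the head of the subunit. PFL (AT1G22780), an S18 gene named for the pointed first leaves of its mutant, had 22 reads (837 CPM) in urt1 xrn4, 113 (2604) in urt1, 2 (204) in xrn4 and 5 (485) in WT. Its log2 ratio was 2.29 in urt1 over WT (1.16 to 4.07), -1.61 in urt1 xrn4 over urt1 (-2.37 to -0.97) and 1.74 in urt1 xrn4 over xrn4 (0.01 to 5.17). U was on 0 reads in urt1 xrn4, 3 in urt1, 2 in xrn4 and 0 in WT. The PFL reads were 12 distinct ends in urt1 xrn4, 24 in urt1, 2 in xrn4 and 3 in WT. Summed over its loci, S18 had 1673 CPM in urt1 xrn4, 3572 in urt1, 1021 in xrn4 and 970.5 in WT. RPS18C (AT4G09800) had 22 reads (837 CPM) in urt1 xrn4, 36 (830) in urt1, 8 (817) in xrn4 and 5 (485) in WT, with no U in urt1 xrn4 or urt1. RPS10B (AT5G41520) had 11 reads (418 CPM) in urt1 xrn4, 53 (1221) in urt1, 9 (919) in xrn4 and 6 (582) in WT, and a log2 ratio of -1.50 in urt1 xrn4 over urt1 (-2.63 to -0.59). Its reads were 6 distinct ends in urt1 xrn4 and 21 in urt1. With identical reads counted once, 0 of 24 loci of 40S proteins were counted as lower in urt1 xrn4 than in urt1. The other S10 locus with over 40 reads, AT5G52650, had 18 (684 CPM) in urt1 xrn4, 41 (945) in urt1, 3 (306) in xrn4 and 6 (582) in WT. All 6 of its WT reads carried U, against 1 of 18 in urt1 xrn4, 1 of 41 in urt1 and 0 of 3 in xrn4. AT5G62300 (S20) was higher in urt1 xrn4 than in urt1, with 13 and 8 reads and a log2 ratio of 1.39 (0.04 to 2.90).

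S3, at the mRNA entry, was not counted in any comparison at either locus with over 40 reads. AT2G31610 had 21 reads (798 CPM) in urt1 xrn4, 37 (853) in urt1, 3 (306) in xrn4 and 4 (388) in WT. AT3G53870 had 9 (342) in urt1 xrn4, 28 (645) in urt1, 2 (204) in xrn4 and 3 (291) in WT, with U on 1 read in urt1 xrn4 and on all 3 in WT. AT5G15200 (S9, also at the entry channel) had 18 (684) in urt1 xrn4, 37 (853) in urt1, 4 (408) in xrn4 and 9 (873) in WT, with U on 1 read each in urt1 xrn4 and xrn4. AT3G11510 (S14, of the platform) had 59 reads (2243 CPM) in urt1 xrn4, 67 (1544) in urt1, 9 (919) in xrn4 and 7 (679) in WT. It was higher in urt1 xrn4 than in WT (log2 ratio 1.64, 0.59 to 3.10), in urt1 than in WT (1.10, 0.06 to 2.55) and in urt1 xrn4 than in xrn4 (1.22, 0.27 to 2.49). U was on 1 of its reads in urt1 xrn4 and 3 in urt1. AT5G03850 (S28) had 27 (1027) in urt1 xrn4, 29 (668) in urt1, 0 in xrn4 and 1 (97.1) in WT. Its log2 ratio was 2.84 in urt1 xrn4 over WT (0.80 to 8.76) and 2.22 in urt1 over WT (0.19 to 8.14). Against a floor of 3 reads in xrn4 it was 3.35-fold higher in urt1 xrn4, with a log2 interval from 1.35.

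The paralogs of S24, a protein of the body of the subunit, had different profiles. AT3G04920 had 42 reads (1597 CPM) in urt1 xrn4, 57 (1314) in urt1, 0 in xrn4 and 8 (776) in WT. Against a floor of 3 reads in xrn4 it was 5.21-fold higher in urt1 xrn4, with a log2 interval from 2.02. AT5G28060 was highest in WT, with 9 reads (342 CPM) in urt1 xrn4, 49 (1129) in urt1, 1 (102) in xrn4 and 23 (2232) in WT. Its log2 ratio was -2.66 in urt1 xrn4 over WT (-4.00 to -1.54), -3.90 in xrn4 over WT (-9.82 to -1.83) and -1.66 in urt1 xrn4 over urt1 (-2.93 to -0.68). In urt1 over WT it fell just short of 2-fold, at -0.9994 (-1.725 to -0.201). The 23 WT reads were 9 distinct ends, and U was on 1 read in urt1 xrn4, 3 in urt1, 0 in xrn4 and 3 in WT. Both S24 loci summed had 1939 CPM in urt1 xrn4, 2443 in urt1, 102 in xrn4 and 3009 in WT. S7 also differed between loci. AT1G48830 had 5 reads (190 CPM) in urt1 xrn4, 47 (1083) in urt1, 6 (612) in xrn4 and 0 in WT. Against a floor of 3 reads in WT it was 3.72-fold higher in urt1, with a log2 interval from 1.54. Its log2 ratio was -2.39 in urt1 xrn4 over urt1 (-4.20 to -1.19), where its reads were 3 and 16 distinct ends. U was on 1 of its reads in urt1 xrn4. AT3G02560 had 18 (684) in urt1 xrn4, 16 (369) in urt1, 4 (408) in xrn4 and 13 (1262) in WT, with a log2 ratio of -1.79 in urt1 over WT (-2.92 to -0.60) that did not reach 2-fold with TMM scaling. Summed over its loci, S7 had 912.5 CPM in urt1 xrn4, 1821 in urt1, 1225 in xrn4 and 2038 in WT. The split between its loci is uncertain, and the sum was similar in urt1 and WT.

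Of the remaining loci with at least 40 reads, AT5G20290 (S8) had 37 reads (1407 CPM) in urt1 xrn4, 53 (1221) in urt1, 11 (1123) in xrn4 and 5 (485) in WT. Its log2 ratio was 1.42 in urt1 xrn4 over WT (0.18 to 3.24) and 1.21 in urt1 over WT (0.02 to 3.01), and U was on 2 reads in urt1 xrn4, 2 in urt1, 1 in xrn4 and 3 in WT. RPS6 (AT4G31700), whose protein is phosphorylated downstream of the TOR kinase, had 19 (722) in urt1 xrn4, 20 (461) in urt1, 1 (102) in xrn4 and 4 (388) in WT. It was higher in urt1 xrn4 than in xrn4 (log2 ratio 2.28, 0.17 to 8.20), with U on 1 read each in urt1 xrn4 and urt1. AT4G39200 (S25) was higher in the same comparison (2.35, 0.25 to 8.27), with 20 (760) in urt1 xrn4, 30 (691) in urt1, 1 (102) in xrn4, 4 (388) in WT and no U. AT2G17360 (S4) had 12 (456) in urt1 xrn4, 25 (576) in urt1, 4 (408) in xrn4 and 0 in WT. Against a floor of 3 reads in WT it was 1.98-fold higher in urt1, with a log2 interval from 0.58. AT3G04840 (S3a) had 16 (608) in urt1 xrn4, 20 (461) in urt1, 12 (1225) in xrn4 and 3 (291) in WT. The other 31 loci with reads had at most 38 over all libraries. Together they gave 195 reads in urt1 xrn4 with 20 uridylated (10.3%; exact 6.38 to 15.4), 307 in urt1 with 7 (2.28%; 0.921 to 4.64), 35 in xrn4 with 12 (34.3%; 19.1 to 52.2) and 46 in WT with 11 (23.9%; 12.6 to 38.8). The highest of them in a library had 494 CPM in urt1 xrn4, 553 in urt1, 817 in xrn4 and 776 in WT.

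In urt1 xrn4 38 of 82 G extensions of 40S reads were at RPS15A (AT1G07770). In urt1 62 of 76 were at other loci, and in xrn4 all 4 and in WT all 21 were. At RPS15A G was on 38 of 98 reads in urt1 xrn4 (38.8%; exact 29.1 to 49.2), on 14 of 95 in urt1 (14.7%; 8.30 to 23.5), on 0 of 4 in xrn4 and on 0 of 7 in WT. The 38 reads in urt1 xrn4 were 18 distinct ends. The rest of the 40S loci had G on 5.01% of reads in urt1 xrn4, 4.32% in urt1, 2.25% in xrn4 and 9.01% in WT. In urt1 its share was below those of AT3G04840 (S3a), with G on 7 of 20 reads, and AT3G53870 (S3), with G on 9 of 28. These loci were picked here after their values were seen.

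Other parts of the translation machinery were looked at through a list of 27 loci of elongation and initiation factors, RACK1, TCTP and poly(A) binding proteins. Pooled, the list had 11.6% uridylated reads in urt1 xrn4 (46 of 397), 6.67% in urt1 (57 of 854), 34.9% in xrn4 (38 of 109) and 25.4% in WT (44 of 173). The eEF1A loci, whose protein brings aminoacyl-tRNA to the ribosome, gave 34 of the 38 uridylated reads in xrn4. Without them the share was 9.38% in urt1 xrn4 (18 of 192), 4.31% in urt1 (15 of 348), 8.70% in xrn4 (4 of 46; exact 2.42 to 20.8) and 35.2% in WT (19 of 54; 22.7 to 49.4). The eEF1A loci were left out after their values were seen, so the low xrn4 share of the rest follows in part from the choice. In share of reads 2 of 8 tested loci were higher and 0 lower in urt1 over WT, beside 20% higher and 8.18% lower of all genes. In xrn4 over WT 0 of 3 were higher and 0 lower (16.7% higher and 13% lower of all genes), and in urt1 xrn4 over WT 3 of 7 were higher and 1 was lower (27% higher and 10.2% lower). In urt1 xrn4 over xrn4 0 of 6 were higher and 0 lower (26.9% higher and 15% lower of all genes), and in urt1 xrn4 over urt1 1 of 12 was higher and 2 were lower (12.2% higher and 10.2% lower). These counts are too small to set the list apart from all genes. The RACK1 loci, whose protein sits on the head of the 40S subunit, had 27 reads (1027 CPM) in urt1 xrn4, 39 (899) in urt1, 6 (612) in xrn4 and 4 (388) in WT. U was on 6 of the RACK1 reads in urt1 xrn4, 3 in urt1, 1 in xrn4 and 1 in WT.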

How the data were processed

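TAIR10 is the build and bedtools 2.17.5, Bowtie2, TopHat2 2.0.9 and CASAVA 1.8.2 are the tools in the submitters' processing notes, which give no role or order. Each line of the deposited table is 1 read and gives its genotype, A length, extension, category and locus, per the file headers. Its sizes are in nucleotides and none is normalised. The genotype name UX was taken as urt1 xrn4, since the other 3 names equal the other labels. Names came from NCBI's annotation TAIR10.1, which matched 8310 of 8346 loci; no coordinates are printed.

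The members and lists were chosen with earlier results of these data known. Loci were named where they had at least 40 reads over the libraries or were counted in a comparison; those named after their values were seen are marked in the text. The values of 1 locus are not reported here on their own. Reads were counted per locus and library and scaled to the library's reads in the table. At this depth 1 read is 38.0 CPM in urt1 xrn4, 23.0 in urt1, 102 in xrn4 and 97.1 in WT. Shares have exact Clopper-Pearson 95% intervals, differences Newcombe intervals and ratios exact conditional binomial intervals. A count of 0 was taken to allow 3 counts. The steps were tested on simulated data with independently drawn reads, which leaves out repeated reads of 1 molecule. The alternatives were identical reads counted once, TMM and median of ratios scaling, other minimums and pseudocounts, tails of up to 25 A, loci weighted equally, the A length classes of WT, paralogs summed, and 1 or 5 loci left out. Python 3.11.15, numpy 2.4.6, pandas 2.3.3, scipy 1.17.1 and matplotlib 3.10.9 were used.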

Additional observations from a re-analysis of the deposited data

Results flagged for a closer look

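Some differences had opposite signs where the same gene was lost in different backgrounds, but in each case 1 of the 2 intervals included no change, so opposite movement is not shown. Each rests on 1 library per genotype, and the difference between the effects was not tested. Loss of XRN4 went with a 40S share of all reads that differed by 0.189 percentage points in urt1 xrn4 from urt1 (ratio 1.05, 0.971 to 1.14) and by -0.472 points in xrn4 from WT (ratio 0.798, 0.654 to 0.971). With TMM scaling the ratios were 0.901 in urt1 xrn4 over urt1 and 0.831 in xrn4 over WT, which is the same direction. The share of uridylated reads with at least 2 U differed by -0.733 points in urt1 xrn4 from urt1 (-17.8 to 14.8) and by 28.9 points in xrn4 from WT (12.2 to 43.3). Without AT5G18380 the first of these was 8.94 points, the same direction as the second. With loss of URT1 the share of tracts under 10 A differed by -6.36 points in urt1 xrn4 from xrn4 (-13.3 to -0.370) and by 3.88 points in urt1 from WT (-0.794 to 7.48).

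C extensions, which the comparisons do not use, were seen on 40S reads of the mutants and on 0 of 240 in WT, with an exact upper limit of 1.525%. They were on 2.35% of 40S reads in urt1 xrn4 (23 of 977, at 10 loci), 1.24% in urt1 (19 of 1530) and 4.396% in xrn4 (8 of 182, at 7 loci). All other genes had 2.16% in urt1 xrn4, 2.08% in urt1, 3.24% in xrn4 and 2.46% in WT.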

How the results depend on the processing

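Of 120 values recomputed under an alternative, 85 stayed within the interval of the first value or within 1.5 times the first count, 35 moved further, and none with an interval that excluded no change turned its sign. All 15 values on the number of U stayed within their first intervals, which were wide. In the share with at least 2 U, xrn4 differed from WT by 15.5 points with identical reads counted once, against 28.9 before. Without AT5G18380, urt1 xrn4 differed from urt1 in that share by 8.94 points, against -0.733 before. With identical reads counted once the read share ratio was 1.31 in urt1 over WT and 1.66 in urt1 xrn4 over xrn4, and the uridylated share of urt1 xrn4 differed from xrn4 by -14.5 points. Loci past 2-fold were then 0 in urt1 over WT (9 before), 0 in xrn4 over WT (1), 1 in urt1 xrn4 over WT (6), 1 in urt1 xrn4 over xrn4 (10) and 2 in urt1 xrn4 over urt1 (5). In urt1 xrn4 over urt1 they were 2 higher and 0 lower of 24, against 1 higher and 4 lower of 37 before. Loci with a difference in uridylation were 0 in all 5 comparisons. There 17 loci passed the minimum in urt1 xrn4 over urt1, and 1 in each other comparison. With a minimum of 50 reads the 2-fold counts were 4 in urt1 over WT, 0 in xrn4 over WT, 2 in urt1 xrn4 over WT and 3 in urt1 xrn4 over xrn4. With no minimum they were 6 in xrn4 over WT, 13 in urt1 xrn4 over WT and 9 in urt1 xrn4 over urt1. TMM scaling, which shifted log2 ratios of all genes by 0.82 in urt1 over WT, gave 17 there (17 higher and 0 lower, against 8 and 1). It gave 0 higher and 5 lower in urt1 xrn4 over urt1, against 1 and 4. The shares of all genes past 2-fold under TMM were not counted. Paralogs summed gave 2 in urt1 xrn4 over urt1. For uridylation a minimum of 20 reads left 1 locus in urt1 over WT, 1 in xrn4 over WT, 1 in urt1 xrn4 over WT and 0 in urt1 xrn4 over xrn4, and paralogs summed gave 5 in urt1 over WT, 4 in xrn4 over WT, 4 in urt1 xrn4 over xrn4 and 3 in urt1 xrn4 over urt1. With loci weighted equally the uridylated share of urt1 xrn4 differed by -29.3 points from xrn4 and by 6.34 from urt1. Without the 5 loci with the most uridylated xrn4 reads, an alternative chosen after seeing the data, it differed by -0.778 points from xrn4, and xrn4 differed from WT by -17.2 points. Without AT5G18380 the share under 10 A differed by 10.7 points in urt1 xrn4 from WT. The cause was not tested where fewer loci do not give it. No paired analysis was possible because each genotype has 1 library and the labels give no replicate numbers. Depth limits most loci: 5 had at least 10 reads in xrn4 and 5 in WT, against 30 in urt1 xrn4 and 40 in urt1.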
